A study of Caenorhabditis elegans with 12 samples.

Results

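The DBL-1 pathway is the bone morphogenetic protein (BMP)-like branch of TGF-beta signalling that sets body length in the nematode Caenorhabditis elegans. It is described here by 10 genes taken by name from a deposited table of 24238 genes: dbl-1, lon-2, daf-4, sma-6, sma-10, sma-2, sma-3, sma-4, sma-9 and lon-1. The table holds 12 libraries of poly(A) RNA from whole N2 animals, N2 being the wild-type laboratory strain. In 6 of them the animals had been given dimethyl sulfoxide (DMSO), the solvent control, and in the other 6 tetrathiomolybdate (TM), a chelator that binds copper, over 4 days. That time is labelled for the TM libraries only, and none is labelled for the DMSO libraries. No dose, developmental stage, age or culture is labelled. The p-values weigh the difference between groups against the spread of libraries within a group, and that spread may be partly technical.

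In this pathway neurons are the main source of the secreted ligand DBL-1, and the receptors and Smad proteins act chiefly in the epidermis under the cuticle. The ligand brings together a type I and a type II receptor kinase. These phosphorylate receptor-regulated Smads, which enter the nucleus with a co-Smad and change the transcription of target genes, among them cuticle collagen genes. Worms that lack the ligand, a receptor or a Smad are small, the phenotype behind the name sma. Worms that lack an inhibitor of the pathway are long, which gave the name lon.

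The comparison asks whether TM changed the RNA levels of the pathway's own components. The secreted cysteine-rich protein gene lon-1, a negative regulator of body length that DBL-1 signalling is known to repress, rose from 17.02 ± 2.01 to 23.6 ± 1.96 FPKM (SD, n = 6 libraries each). The Smad gene sma-3 rose from 4.02 ± 0.762 to 5.54 ± 1.11 FPKM. The other 8 genes did not pass the test, and the ligand gene dbl-1 went from 5.49 ± 0.408 to 6.43 ± 0.603 FPKM. FPKM, a fragment count scaled by transcript length and library depth, is the authors' measure of level and allows genes of unlike length to be compared. Changes are log2 of TM over DMSO ± SE from edgeR's quasi-likelihood test on the counts, with Benjamini-Hochberg adjusted p over all 11535 tested genes and a threshold of 0.05.

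All 10 genes averaged 1 FPKM or more across all 12 libraries and were tested. Of them 2 were higher in TM and 0 lower, against 39.8% of all tested genes called in either direction, 23.7% called higher and 16.05% called lower. Among the genes that did not pass, daf-4 (lower) and dbl-1 (higher) had an unadjusted p = 0.0202 and 0.0486 by edgeR. After adjustment DESeq2 called daf-4 lower and did not call dbl-1. The median log2 change of the 10 was 0.17, and that of all tested genes -0.01. In 1 of the 10, lon-1, the FPKM values of the groups did not overlap, which was so for 22.5% of all tested genes. The share of members called was not above that background.

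**Figure D1:**
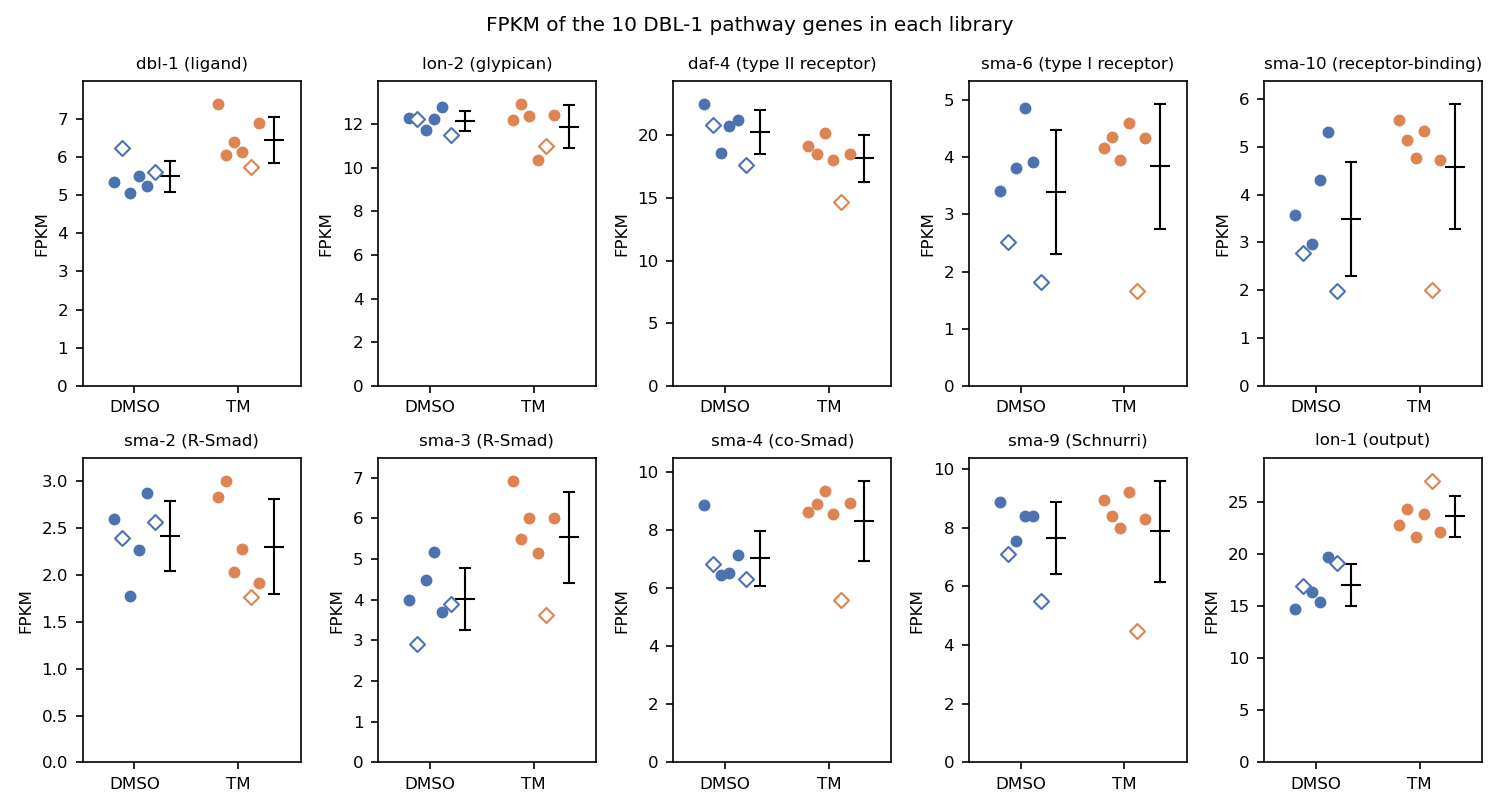
FPKM (vertical axes, each from 0 with its own scale) of the 10 genes in 6 DMSO libraries (blue) and 6 TM libraries (orange), with the mean and SD in black. Open diamonds are DMSO replicates 2 and 6 and TM replicate 5, and lon-1 is the gene whose TM points all lie above its DMSO points.

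Total counts per library ran from 61432401 to 67068328, and the 10 genes held between 196 (sma-2) and 4754 (sma-9) counts in a library. On the first principal component, with 72.2% of the variance, DMSO replicate 6 lay at -7.34, between the other DMSO libraries (-61.0 to -40.4) and the TM libraries (39.4 to 56.0). On the second, with 9.72%, TM replicate 5 at -39.1, DMSO replicate 6 at -29.3 and DMSO replicate 2 at -20.4 stood apart from the rest (1.75 to 15.7). These 3 also had the lowest length slopes of their groups. The slope of a library's log2 CPM deviation on log2 exon length was -0.24 in TM replicate 5, -0.0979 in DMSO replicate 6 and -0.00255 in DMSO replicate 2. The remaining DMSO libraries had slopes of 0.0338 to 0.126, and the remaining TM libraries -0.0263 to 0.0465. The labels' protocol gives a minimum RNA integrity number but no value per library, and the cause of these slopes was not tested.

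The ligand gene dbl-1 lies on chromosome V (6758135 to 6760418, plus strand, WBcel235) and encodes a protein of 365 residues. Its lowest, median and highest levels were 5.05, 5.42 and 6.22 FPKM in DMSO and 5.74, 6.26 and 7.38 FPKM in TM. All 6 TM values lay above the DMSO median, and the groups overlapped through DMSO replicate 2, the highest of its group. The change did not pass (log2 change 0.19 ± 0.089, 95% interval 0.0014 to 0.38, adjusted p = 0.101 by edgeR). Without DMSO replicates 2 and 6 and TM replicate 5 the levels were 5.28 ± 0.189 and 6.56 ± 0.560 FPKM (SD, n = 4 and 5). The groups then no longer overlapped, an outcome fixed in advance by leaving out DMSO replicate 2. TM replicate 5 held the lowest TM value, and the 3 libraries were chosen with earlier results of these data known. In that fit the change passed (log2 change 0.31 ± 0.099, edgeR adjusted p = 0.0102). It passed in 3 of 23 alternatives, the others being total counts (0.23, adjusted p = 0.0452) and leaving out DMSO replicate 2 alone (0.24, adjusted p = 0.0464). After quantile normalization the sign turned, with a log2 change of -0.12 (limma adjusted p = 0.219).

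Of 11 tested neuron markers 5 rose and 1 fell, beside 23.7% and 16.05% of all tested genes. The median log2 change of the 11 was 0.28. The choline transporter gene cho-1, at 0.855 ± 0.126 FPKM in DMSO, rose most (log2 change 0.53 ± 0.14, adjusted p = 0.00929). The marker that fell was unc-119 (log2 change -0.31 ± 0.10, adjusted p = 0.0244). Among the 5 that did not pass was rab-3 (0.12 ± 0.17, adjusted p = 0.609). Both unc-119 and rab-3 are named after their values were seen. The FPKM of the 14 markers summed to between 378 and 451 in DMSO and between 391 and 487 in TM, and none was at 0 in all libraries. In RNA of whole animals, fewer cells of a type and less RNA per cell cannot be told apart, and the part of neuron content in the dbl-1 values was not tested.

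The glypican gene lon-2 (chromosome X, 4738964 to 4749083, minus strand) encodes a cell-surface proteoglycan core of 508 residues that binds the ligand and holds the pathway back. It had the steadiest level of the 10 genes in DMSO, at 11.5, 12.2 and 12.8 FPKM for the lowest, median and highest library, and 10.3, 12.3 and 12.9 FPKM in TM. The TM range enclosed the DMSO range. The log2 change was -0.06 ± 0.063 (95% interval -0.20 to 0.074, adjusted p = 0.459 by edgeR), and with the gene-length correction 0.06. Per library, lon-2 stood at 2.22 ± 0.178 times the FPKM of dbl-1 in DMSO and 1.86 ± 0.180 times in TM (SD, n = 6 each), with overlapping ranges of 1.97 to 2.45 and 1.65 to 2.14.

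The receptor genes differed in how steady they were. The type II receptor gene daf-4 (chromosome III, 5625135 to 5632322, plus strand, 744 residues) serves this branch and also the DAF-7 branch that controls dauer entry. Its levels were 17.7, 20.8 and 22.5 FPKM in DMSO and 14.7, 18.5 and 20.2 FPKM in TM. All 6 TM values lay below the DMSO median, though the groups overlapped. A log2 change of -0.19 ± 0.072 (95% interval -0.34 to -0.0338) had an edgeR adjusted p = 0.0506, just outside the threshold. It passed in 7 of 23 alternatives, DESeq2 among them (adjusted p = 0.0216), and over the 23 the adjusted p ran from 0.0122 to 0.343. The highest came with the gene-length correction, where the log2 change was -0.11.

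The type I receptor gene sma-6 (chromosome II, 6324484 to 6327355, plus strand, 636 residues) had 1.81, 3.62 and 4.87 FPKM in DMSO and 1.66, 4.25 and 4.59 FPKM in TM. Its lowest libraries were DMSO replicate 6 and TM replicate 5, and the TM range lay almost within that of DMSO. Its log2 change was 0.15 ± 0.24 (95% interval -0.35 to 0.66, adjusted p = 0.623 by edgeR), an interval wide on both sides of 0. Without the 3 libraries that stood apart it was 0.10 ± 0.11, with an adjusted p = 0.488.

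The gene sma-10 (chromosome IV, 274589 to 279940, plus strand, 881 residues) encodes a transmembrane protein of leucine-rich repeats and immunoglobulin domains that binds the receptors and promotes signalling. It had 1.99, 3.27 and 5.32 FPKM in DMSO and 1.996, 4.95 and 5.56 FPKM in TM. Of the TM libraries, replicate 5 was down at the lowest DMSO level and the other 5 lay between 4.72 and 5.56 FPKM. The log2 change was 0.37 ± 0.23 (95% interval -0.13 to 0.87, adjusted p = 0.220 by edgeR). It passed without TM replicate 5 (log2 change 0.51 ± 0.18, adjusted p = 0.0279) and without all 3 libraries that stood apart (log2 change 0.34 ± 0.12, adjusted p = 0.0218). Of the receptor genes daf-4 was the most abundant in both groups. Per library sma-6 stood at 0.167 ± 0.0506 of its FPKM in DMSO and 0.209 ± 0.0507 in TM (SD, n = 6 each), and sma-10 at 0.171 ± 0.0505 and 0.249 ± 0.0595, with overlapping ranges.

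Among the Smad genes, sma-3 passed the test and sma-2 and sma-4 did not. The receptor-regulated Smad gene sma-3 (chromosome III, 6860974 to 6863968, minus strand, 393 residues) had 2.91, 3.94 and 5.18 FPKM in DMSO and 3.63, 5.75 and 6.93 FPKM in TM. TM replicate 5 lay within the DMSO values and the other 5 TM libraries between 5.14 and 6.93 FPKM. The gene rose by the count test (log2 change 0.43 ± 0.15, 95% interval 0.10 to 0.75, edgeR adjusted p = 0.0366). The call held in 11 of 23 alternatives. It was lost on leaving out DMSO replicate 1, 2 or 5 or TM replicate 1, 2, 3 or 6. In those fits the log2 change was 0.36 to 0.43 and the adjusted p 0.0553 to 0.0874. The call was also lost with no filter (adjusted p = 0.0588), with edgeR's own count filter (0.0523) and with replicate number as a block (0.0527). The same held with the gene-length correction (log2 change 0.47, adjusted p = 0.0568) and after quantile normalization (0.04, limma adjusted p = 0.818). Without the 3 libraries that stood apart the log2 change was 0.45 ± 0.13 (adjusted p = 0.00687).

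The receptor-regulated Smad gene sma-2 (chromosome III, 8749680 to 8757089, plus strand, 418 residues) was the least abundant of the 10 genes, with 1.78, 2.48 and 2.87 FPKM in DMSO and 1.76, 2.15 and 3.004 FPKM in TM. Values of the groups lay over each other across nearly the whole range. The log2 change was -0.10 ± 0.15 (95% interval -0.43 to 0.23, adjusted p = 0.632 by edgeR). It was 0.02 without the 3 libraries that stood apart, and passed after quantile normalization with -0.46 (limma adjusted p = 0.00179). Its exons share 5.88% of their bases with aak-1 and 3.06% with ugtp-1 on the opposite strand. The library protocol in the labels marks strand by a U-labelled second strand, but whether the authors' counting used it is not given in the sources used here, so reads of those genes may be in its counts. Such overlaps with coding genes were under 1% for dbl-1 (0.521%) and sma-9 (0.608%), and 0 opposite-strand coding genes overlapped the other members. Per library, sma-3 stood at 1.73 ± 0.544 times the FPKM of sma-2 in DMSO and 2.45 ± 0.517 times in TM (SD, n = 6 each), over overlapping ranges.

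The co-Smad gene sma-4 (chromosome III, 5816275 to 5820197, plus strand, 565 residues) had 6.32, 6.68 and 8.85 FPKM in DMSO and 5.57, 8.76 and 9.35 FPKM in TM. A single library stood off in each group, DMSO replicate 1 high and TM replicate 5 low, and the other 5 TM libraries lay between 8.57 and 9.35 FPKM. The change did not pass (log2 change 0.21 ± 0.12, 95% interval -0.03 to 0.46, adjusted p = 0.153 by edgeR). It passed without TM replicate 5 (log2 change 0.29 ± 0.087, adjusted p = 0.0117).

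The Schnurri-type zinc-finger gene sma-9 (chromosome X, 10769282 to 10782973, plus strand) works with the Smads on target genes, and its longest protein has 2242 residues. It had 5.51, 7.97 and 8.87 FPKM in DMSO and 4.48, 8.36 and 9.21 FPKM in TM. The lowest library of each group was again DMSO replicate 6 and TM replicate 5, and the groups overlapped almost fully. The log2 change was 0.02 ± 0.14 (95% interval -0.28 to 0.32, adjusted p = 0.935 by edgeR). Without the 3 libraries that stood apart the interval narrowed to -0.06 to 0.16, around a log2 change of 0.05.

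The gene lon-1 (chromosome III, 5474476 to 5478005, plus strand, 312 residues) had 14.7, 16.6 and 19.7 FPKM in DMSO and 21.6, 23.3 and 27.05 FPKM in TM. Every TM library lay above every DMSO library. The log2 change was 0.44 ± 0.095 (95% interval 0.24 to 0.65, edgeR adjusted p = 0.00215), a level 35.8% higher. The call held in 23 of 23 alternatives, with log2 changes from 0.38 to 0.50 and adjusted p from 3.73e-05 to 0.00758. The transcript of lon-1 is the shortest of the 10, with 1175 exon bases. The gene was highest of its group in TM replicate 5, and it stood at 1.15 times the mean of the other DMSO libraries in DMSO replicate 6. With the gene-length correction its log2 change was 0.46 (adjusted p = 0.000881), and without the 3 libraries that stood apart 0.47 ± 0.080. Per library, lon-1 was above daf-4 in 1 of 6 DMSO libraries and in 6 of 6 TM libraries, a pair chosen after their values were seen. The ratio was 0.849 ± 0.150 in DMSO and 1.32 ± 0.272 in TM, with ranges of 0.653 to 1.082 and 1.07 to 1.84 that overlapped. The highest ratio of each group came from DMSO replicate 6 and TM replicate 5, the libraries with the lowest length slopes. With 3097 exon bases daf-4 is much longer than lon-1, and the part of the length slopes in this ratio was not tested.

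**Figure D2:**
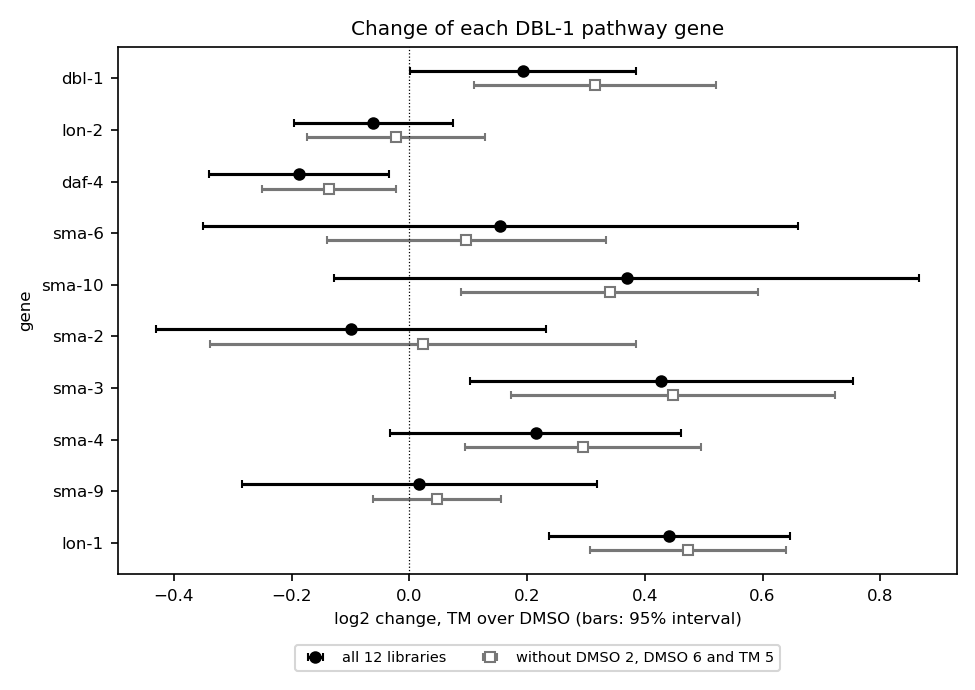
Log2 change of TM over DMSO (horizontal axis) with its 95% interval for each of the 10 genes (vertical axis), from all 12 libraries (filled circles) and without DMSO replicates 2 and 6 and TM replicate 5 (open squares). The intervals of lon-1, sma-3 and dbl-1 lie above 0 and that of daf-4 below 0 in both fits, and those of sma-6, sma-9 and sma-10 are narrower without the 3 libraries.

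The epidermis is where lon-1 is known to be expressed. Of 11 tested epidermis markers other than collagens 6 rose and 1 fell, beside the same background, with a median log2 change of 0.44. The hedgehog-related genes wrt-1 (log2 change 2.01 ± 0.15, adjusted p = 1.30e-06) and wrt-10 (log2 change 1.06 ± 0.12, adjusted p = 1.28e-05) rose most clearly. FPKM of the 12 markers summed to between 163 and 177 in DMSO and between 208 and 235.4 in TM, and none was at 0 in all libraries. The gene grd-5, at 38.9 ± 5.09 FPKM in DMSO and 74.9 ± 13.7 in TM, weighed heavily in that rise. The 4 that did not pass were elt-3 (log2 change 0.22 ± 0.11), bli-4 (-0.07 ± 0.053), elt-1 (-0.13 ± 0.12) and nhr-25 (-0.06 ± 0.22). The epidermal regulator lin-26 was the marker that fell (log2 change -0.16 ± 0.052, adjusted p = 0.0245). It, grd-5 and those 4 are named after their values were seen. The part of epidermal content in the lon-1 values was not tested.

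Among the 10 genes the order of levels in DMSO ran from daf-4 (20.3 ± 1.79 FPKM) through lon-1, lon-2, sma-9, sma-4, dbl-1, sma-3, sma-10 and sma-6 to sma-2 (2.41 ± 0.371 FPKM). In that order lon-1 and lon-2, lon-2 and sma-9, and sma-4 and dbl-1 did not overlap between libraries. The 6 other neighbouring pairs overlapped, although dbl-1 was above sma-3 in 6 of 6 libraries of each group when compared within a library. In TM lon-1 led, with daf-4 and lon-2 next and no overlap down to sma-4, and sma-4 and sma-9 changed places within their spread. The DMSO level of daf-4 lay above that of 54.8% of tested genes and that of sma-2 above 20.9%. Among tested genes the pathway's genes were thus of middling to low abundance, and 12703 further genes lay below the filter.

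The members also differed in how far they followed the libraries that stood apart. TM replicate 5 was the lowest TM library for 8 of the 10 genes, as it was for 42.6% of all tested genes and for 72.2% of the 3097 tested genes with over 2000 exon bases. The 4 members above that length, sma-6, sma-10, daf-4 and sma-9, were all among the 8. In TM replicate 5 sma-6 stood at 0.389 and sma-10 at 0.391 times the mean of the other TM libraries, and daf-4, of nearly the length of sma-10, at 0.778. In DMSO replicate 6 the values were 0.488, 0.526 and 0.850 times that of the other DMSO libraries. At the other end, lon-1 stood at 1.18 in TM replicate 5. Without TM replicate 5 the coefficient of variation over TM libraries was 7.08% in place of 28.5% for sma-10 and 5.66% in place of 28.4% for sma-6. The median over all tested genes with all 6 TM libraries was 14.1%.

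**Figure D3:**
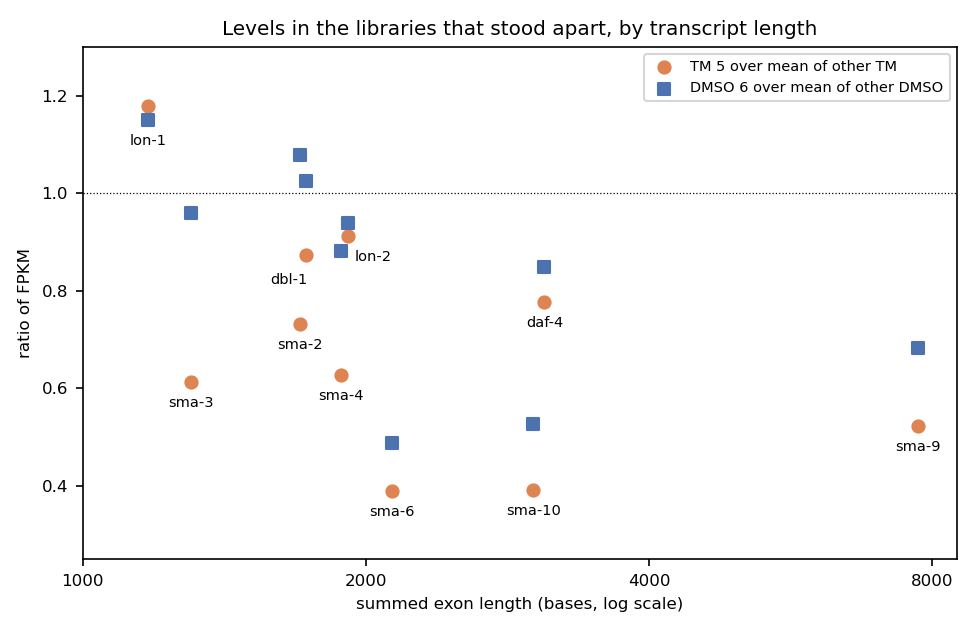
FPKM in TM replicate 5 over the mean of the other TM libraries (orange circles), and in DMSO replicate 6 over the mean of the other DMSO libraries (blue squares), against summed exon length of the 10 genes on a log axis. The short lon-1 lies above 1 in both, at 1.18 and 1.15, and sma-6 and sma-10 are lowest.

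The count of calls depended on the libraries used. Without DMSO replicates 2 and 6 and TM replicate 5, dbl-1, sma-3, sma-4, sma-10 and lon-1 rose and daf-4 fell, 6 of 10 genes, beside 55.05% of all tested genes called in that fit. With the gene-length correction on all 12 libraries 1 of 10, lon-1, passed, beside 35.02% of all tested genes. In both fits lon-1 was called higher. The share called of the 10 genes was near the background in the first of these and below it in the second.

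Other modulators of DBL-1 signalling went both ways. Of 11 tested genes 2 rose, 3 fell and 6 did not pass, with a median log2 change of -0.14, beside 39.8% of all tested genes called. The tetraspanin gene tsp-14, whose product promotes BMP signalling at the membrane, had 2.40 ± 0.356 FPKM in DMSO and rose to 4.52 ± 0.324 FPKM (log2 change 0.88 ± 0.10, adjusted p = 1.55e-05). Its DMSO values ended at 2.90 and its TM values began at 4.17 FPKM. The related tetraspanin gene tsp-12 fell from 165 ± 6.20 FPKM in DMSO to 141.6 ± 5.53 in TM (log2 change -0.25 ± 0.050, adjusted p = 0.00118). The secreted ADAMTS metalloprotease gene adt-2, which acts on body size and cuticle organisation, rose (log2 change 0.48 ± 0.088, adjusted p = 0.000637), a call lost after quantile normalization (0.057, limma adjusted p = 0.553). The ADAM10-type protease gene sup-17 (log2 change -0.25 ± 0.061, adjusted p = 0.00530) and the sorting nexin gene snx-3, which recycles SMA-6 to the membrane (log2 change -0.25 ± 0.063, adjusted p = 0.00599), fell. The call of sup-17 was lost after quantile normalization (-0.16, limma adjusted p = 0.0673). The co-receptor genes drag-1 and unc-40, related to RGM and neogenin, had log2 changes of -0.14 ± 0.15 and -0.23 ± 0.13 (adjusted p = 0.470 and 0.161). The Crim1-like gene crm-1 had 0.25 ± 0.13 (adjusted p = 0.143), and 0.36 without TM replicate 5 (adjusted p = 0.00169).

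In the DAF-7 branch, which shares daf-4 as its type II receptor, 1 of 6 genes rose, 1 fell and 4 did not pass, beside the same 39.8%, with a median log2 change of -0.08. Its type I receptor gene daf-1 fell from 21.7 ± 1.04 to 17.9 ± 0.810 FPKM with no overlap (log2 change -0.31 ± 0.061, adjusted p = 0.00106). The Smad gene daf-14 rose from 6.81 ± 1.12 FPKM in DMSO to 10.3 ± 1.80 in TM (log2 change 0.56 ± 0.13, adjusted p = 0.00281). The ligand gene daf-7 (log2 change -0.10 ± 0.17), the Smad gene daf-8 (-0.25 ± 0.17) and the co-Smad gene daf-3 (0.25 ± 0.10) had adjusted p = 0.657, 0.263 and 0.0587. The fall of daf-1 was lost with the gene-length correction (log2 change -0.21, adjusted p = 0.0851), while daf-3 then passed (log2 change 0.34, adjusted p = 0.00571).

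Of the other TGF-beta family genes 3 of 4 were tested and 2 rose, beside 23.7% of all tested genes called higher. The BMP-like ligand gene unc-129, which guides motor axons, went from 1.65 ± 0.386 FPKM in DMSO to 2.56 ± 0.656 in TM (log2 change 0.60 ± 0.19, adjusted p = 0.0242), and the ligand gene tig-2 from 3.65 ± 0.514 FPKM to 4.77 ± 0.467 (log2 change 0.35 ± 0.13, adjusted p = 0.0429). The call of tig-2 was lost on leaving out any 1 of 10 libraries, all but DMSO replicates 2 and 6, and that of unc-129 without DMSO replicate 1 or TM replicate 1. After quantile normalization neither passed, with log2 changes of -0.043 for tig-2 and 0.0031 for unc-129 (limma adjusted p = 0.758 and 0.986). The Smad-related gene tag-68 had a log2 change of 0.47 ± 0.19 (adjusted p = 0.0577), and the ligand gene tig-3 lay below the filter at 0.588 ± 0.206 and 0.573 ± 0.125 FPKM.

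Genes linked to the pathway's outputs were chosen with earlier results of these data known, and they moved in both directions. Of 12 genes 9 were tested, and 5 of these rose and 4 fell, beside 23.7% and 16.05% of all tested genes. The median log2 change of the 9 was 0.29. The count that rose was 3 without DMSO replicate 1 and 3 without DMSO replicate 3, where lys-1 and mab-21 lost the call. Of 12 fits that each left out 1 library, lys-1 and mab-21 passed in 7 each, and so did lys-8, which fell. These 3 genes are named after their values were seen. The cuticle collagen genes rol-6, from 2.67 ± 2.43 FPKM in DMSO to 28.9 ± 6.12 in TM (log2 change 3.37 ± 0.48, adjusted p = 0.000102), and col-41, from 0.820 ± 0.728 FPKM to 10.2 ± 3.42 (log2 change 3.58 ± 0.44, adjusted p = 2.53e-05), rose most. DMSO replicate 6 held 7.24 FPKM of rol-6 and 2.26 FPKM of col-41, more than any other DMSO library. The desaturase gene fat-7 and the lysozyme gene lys-7 fell, by 2.13 and 1.23 on the log2 scale, and the collagen col-142 rose (log2 change 1.98). The other 4 that passed had log2 changes between -0.36 and 0.63. Below the filter, the collagen col-141 had 0.258 ± 0.158 and 1.69 ± 0.446 FPKM with no overlap, the antimicrobial peptide gene cnc-2 had 0.518 ± 0.259 and 0.460 ± 0.353 FPKM, and the saposin-like gene spp-9 was at 0 in all DMSO libraries and at most 0.127 FPKM in TM.

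Body size genes outside the pathway, also chosen with earlier results of these data known, rose in 4 of 7 tested and fell in 0. Of all tested genes 23.7% rose and 16.05% fell. The median log2 change of the 7 was 0.28. The cuticle collagen gene lon-3 went from 1.38 ± 1.38 FPKM in DMSO to 15.7 ± 2.92 in TM (log2 change 3.44 ± 0.46, adjusted p = 5.08e-05), with 4.13 FPKM in DMSO replicate 6 and at most 1.46 in the other DMSO libraries. The secreted epidermal protein gene lon-8 went from 5.19 ± 2.18 FPKM in DMSO to 16.9 ± 2.05 in TM (log2 change 1.66 ± 0.22, adjusted p = 5.28e-05). Both are known to lengthen the body when lost, as lon-1 and lon-2 do, and of these 4 lon genes lon-2 was the one that did not pass. The kinase gene sma-5 (log2 change 0.94 ± 0.16, adjusted p = 0.000377) and the calcineurin gene tax-6 (0.28 ± 0.061, adjusted p = 0.00245) rose as well. The spectrin gene sma-1 had 0.04 ± 0.19 (adjusted p = 0.878) and the cGMP-dependent kinase gene egl-4 0.02 ± 0.049 (adjusted p = 0.803). The Runx factor gene rnt-1 lay below the filter, at 0.822 ± 0.254 and 0.653 ± 0.186 FPKM.

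**Figure D4:**
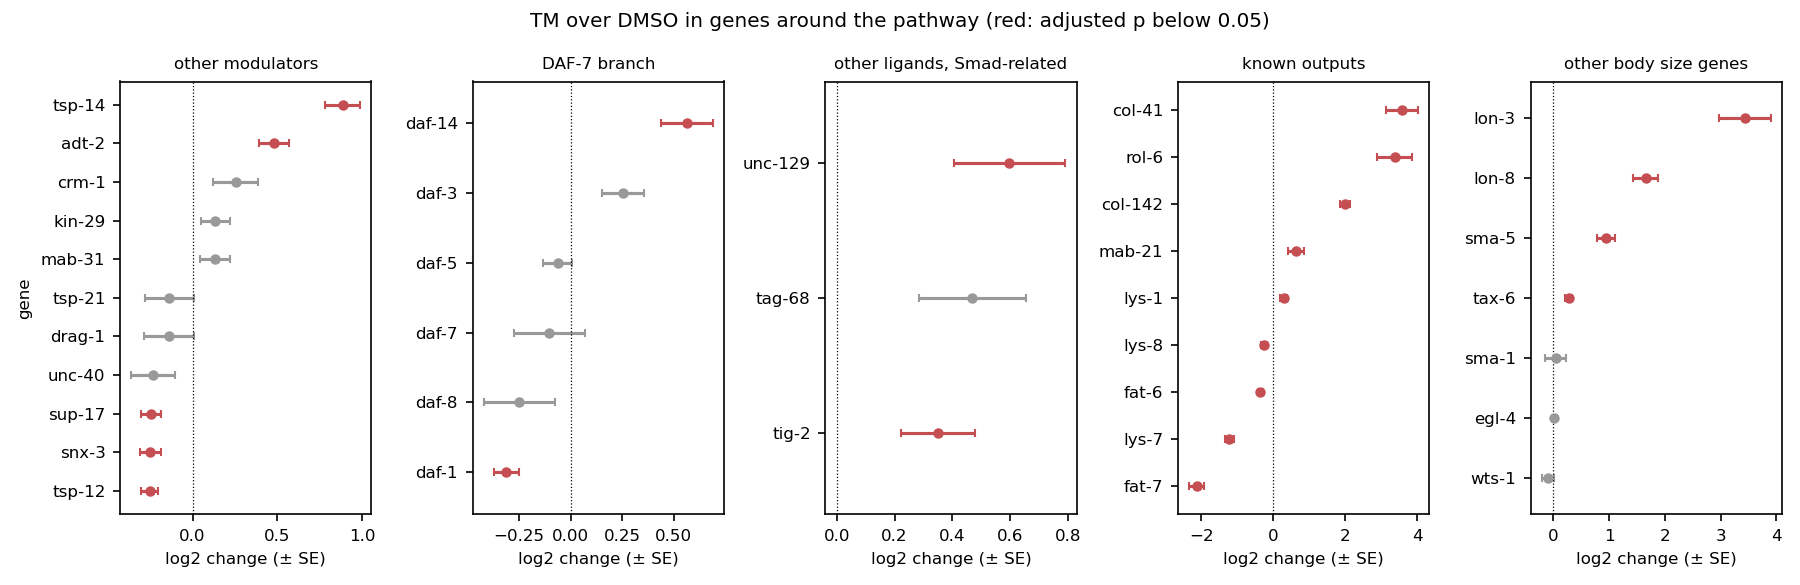
Log2 change of TM over DMSO with its SE (horizontal axes, each with its own scale) for the tested genes of 5 lists around the pathway. Red points passed an adjusted p of 0.05 and grey points did not, and the collagen genes rol-6, col-41 and lon-3 lie farthest to the right, between 3.37 and 3.58.

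Markers of other tissues of the whole animal were read in the same libraries. Of all tested genes 23.7% were called higher and 16.05% lower. Body wall muscle markers rose in 8 of 8 (median log2 change 0.70), pharynx markers in 5 of 6 tested with 0 fallen (0.54), intestine markers in 3 of 9 with 0 fallen (0.06), and sperm markers in 6 of 7 tested with 0 fallen (3.16). Germline and oocyte markers fell in 6 of 10 and rose in 0 (-0.29). Summed FPKM of the 8 body wall muscle markers was 1212 to 1515 in DMSO and 1866 to 2365 in TM, and that of the 9 sperm markers 20.6 to 40.1 and 84.0 to 126. DMSO replicate 6 scored highest for sperm among the DMSO libraries, 1.13 over the DMSO mean on the log2 scale, against 2.72 to 3.11 in TM. The part of tissue makeup in the changes of the 10 genes was not tested.

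Likeness of pattern was measured by Pearson's r of log2 CPM over the 12 libraries after each group's mean had been taken off. The 3 tested genes nearest to dbl-1 were exos-7 (r = 0.90), rsd-3 (0.88) and eppl-1 (0.88), and of these eppl-1 alone passed the test between the groups (log2 change 0.58, adjusted p = 1.78e-05). Nearest to lon-1 were F45H11.8 (r = 0.95), D2030.4 (0.94) and lsm-4 (0.94), none of which passed (adjusted p = 0.474, 0.0587 and 0.557). These libraries share the length slopes given above, and the r values describe these 12 libraries only.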

How the data were processed

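The submitters' processing notes name cutadapt 1.9, FastQC, HISAT2 2.2.1 and StringTie, with no role or order. Counting, its strand setting and the genome build: not given in the sources used here. The authors deposited raw read counts and FPKM values per gene for each library, per the file headers. Coordinates are those of the deposited table. Of 24238 genes 23875 were matched to the WBcel235 annotation, and 96.1% of the matched starts were equal to it. No sequences are printed.

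Counts were tested with edgeR 4.0.16 in R 4.3.3 (TMM scaling, robust quasi-likelihood F test, treatment as the only term) over genes averaging 1 FPKM or more, with Benjamini-Hochberg adjustment. The SE is the log2 change over the square root of F, and 95% intervals use the t quantile of the test's degrees of freedom. Ranges of single genes are FPKM. Lists were scored per library by the mean log2 CPM of tested members, relative to DMSO. The length slope is a robust linear fit, and the length correction a robust loess of span 0.5 per library, centred on its median. The 23 alternatives changed the filter, scaling, test (DESeq2 1.42.0, limma 3.58.1), pseudocount (0.1 in place of 1), libraries or covariates. Chi-square per degree of freedom of the 30 pairs of libraries within groups was 15.2 to 165 against counting noise, so no pair looked like a library deposited in duplicate. This does not show that the libraries come from separate cultures.

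The members, lists and the libraries left out were chosen with earlier results of these data known. Shares of a list set beside those of all tested genes therefore describe the list and test nothing. Named genes are all 10 members, up to 5 genes past the threshold and up to 3 others of each pathway list, and up to 3 of each marker list. Genes beyond these are said to be named after their values were seen. The intestine marker opt-2 was not matched by name and was not used here.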

Additional observations from a re-analysis of the deposited data

Results flagged for a closer look

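The FPKM values of each member and each tested pathway gene were searched for a library far from the others of its group, by Dixon's ratio for 6 libraries (critical value 0.625). Of 92 groups 14 had one, and chance flags about 1 in 20. Most concerned TM replicate 5, which was low for sma-4 (5.57 FPKM, other TM libraries 8.57 to 9.35), sma-6 (1.66, others 3.95 to 4.59), sma-9 (4.48, others 7.98 to 9.21) and sma-10 (1.996, others 4.72 to 5.56). The same library was low for crm-1 (3.06 FPKM), unc-40 (18.6), adt-2 (4.00), sma-1 (3.78) and wts-1 (4.24). DMSO replicate 6 was high for rol-6 (7.24 FPKM, other DMSO libraries 0.688 to 2.90), col-41 (2.26, others 0.357 to 0.804) and lon-3 (4.13, others 0.545 to 1.46). DMSO replicate 1 was high for sma-4 (8.85 FPKM, others 6.32 to 7.14), and TM replicate 3 for egl-4 (100.8 FPKM, others 94.4 to 96.5). The causes were not tested.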

How the results depend on the processing

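Among the 10 genes, 188 of 230 values under the 23 alternatives kept their direction and their side of the threshold. Of the rest 12 lost the call, all of sma-3, 16 gained one and 14 turned sign. In the other pathway lists 750 of 828 values kept both. Higher members numbered 1 with no filter, with edgeR's own count filter, after quantile normalization, with a replicate block and with the gene-length correction, 3 with total counts, and 5 without the 3 libraries. Leaving out each library gave 1 to 4. Lower members numbered 1 with edgeR's count filter, median-ratio scaling, DESeq2 and without the 3 libraries, 3 after quantile normalization, and 0 to 1 on leaving out each library. Lower calls over all tested genes, 1851 as reported, numbered 2945 after quantile normalization, 1099 with the gene-length correction and 2832 without the 3 libraries. Of all calls 59.7% were higher as reported, 66.6% with no filter, 66.9% with total counts, 39.6% after quantile normalization and 72.8% with the gene-length correction, and no filter moved the median log2 change of all genes to 0.10.

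Quantile normalization turned the log2 change of dbl-1 (-0.12), sma-4 (-0.053), sma-6 (-0.23), sma-9 (-0.24), sma-10 (-0.042), crm-1 (-0.12), kin-29 (-0.18), mab-31 (-0.030), tig-2 (-0.043), tag-68 (-0.14), mab-21 (-0.089) and sma-1 (-0.22). The count filter turned sma-9 (-0.028), sma-1 (-0.0051) and egl-4 (-0.027), median-ratio scaling sma-9 (-0.0075) and egl-4 (-0.0036), and DESeq2 sma-9 (-0.0075) and egl-4 (-0.0036). The gene-length correction turned lon-2 (0.065) and daf-5 (0.079), and leaving out the 3 libraries sma-2 (0.023). On leaving out each library sma-9 ran from -0.049 to 0.12, sma-1 from -0.052 to 0.17 and daf-7 from -0.17 to 0.00014. The causes were not tested.

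No label says that replicate numbers mark pairs or batches. Deviations of same-numbered libraries had r from -0.36 to 0.24, and 2 of 6 matched their own number best. These deviations also carry the length slopes of the libraries, so the r values cannot settle whether libraries were paired. With the replicate block sma-3 had an adjusted p = 0.0527 and lon-1 0.00644 by edgeR, unc-129 0.0566, and sma-9 a log2 change of -0.0017. The least abundant gene, sma-2, held 196 to 341 counts in a library. Its SE of 0.15 was below those of sma-6 (0.24) and sma-10 (0.23), which held more.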
